A study of Homo sapiens with 6 samples.

Results

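The mammary lineage transcription factors described here are 10 genes, TP63, GATA3, FOXA1, ESR1, ELF5, ELF3, EHF, KLF5, TFAP2A and TFAP2C, chosen by name from the 58676 rows of the deposited expression table. Each name matched a single row. Of the 10, 8 had a mean of at least 0.5 FPKM (fragments per kilobase of gene length scaled to the reads counted in the sample) over the 6 samples and were tested, while ESR1 and ELF5 lay below that level. The samples were DCIS.COM cells, an established human line that serves as a basal-type model of ductal carcinoma in situ (DCIS), a lesion in which tumour cells are still held within the milk duct. Cells were transduced with lentiviral PLKO.1 vectors carrying either a non-silencing shRNA (NS control, n = 3) or an shRNA against BCL9 (BCL9 KD, n = 3), and both groups grew in DMEM/F12 with horse serum and antibiotic. BCL9 is a coactivator of β-catenin, and the study asked what its loss changes in DCIS cells, with attention to STAT3 signalling. Each replicate was a flask of this 1 line, so p-values measure the spread between flasks, and fewer cells of a type could not be told apart from less RNA per cell.

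The mammary duct has an outer basal layer and an inner luminal layer, and each layer is set up by its own transcription factors. p63, the product of TP63, maintains basal epithelium, whereas GATA3, FOXA1 and the estrogen receptor ESR1 act together in hormone-sensing luminal cells and ELF5 drives the milk-secreting alveolar branch. ELF3 and EHF are epithelial ETS factors, KLF5 is a zinc finger factor of proliferating epithelium, and the AP-2 factors TFAP2A and TFAP2C bind many of the enhancers that these factors use in breast cells.

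NS control cells expressed TFAP2C most highly, followed by EHF, TP63 and KLF5, with lower levels of GATA3, TFAP2A, ELF3 and FOXA1 and only a few reads on ESR1 and ELF5. None of the 8 tested factors passed an adjusted p of 0.05 between BCL9 KD and NS control cells (limma on log2(FPKM + 0.5), Benjamini-Hochberg adjustment over 13745 genes). KLF5 came nearest, with a mean and SD over 3 samples of 11.7 ± 0.985 FPKM in NS control and 15.2 ± 0.395 FPKM in BCL9 KD, and an adjusted p of 0.0501. Over all genes tested, 807 (5.87%) passed, 407 (2.96%) with higher and 400 (2.91%) with lower expression in BCL9 KD. At an unadjusted p under 0.05, limma called 4 of the 8 factors (TP63, TFAP2C, KLF5 and ELF3), beside 27.5% of all genes tested. Voom on the recovered reads called 1 factor, KLF5, and 1400 of the 13745 genes tested.

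The samples held between 15222452 and 26949026 reads on genes. The knockdown target BCL9 fell by 0.99 on the log2 scale, with a mean and SD over 3 samples of 5.94 ± 0.522 FPKM in NS control and 2.74 ± 0.139 FPKM in BCL9 KD (limma adjusted p = 0.00773). The adjusted p of BCL9 rose past 0.05 without NS control replicate 2 (0.0636), BCL9 KD replicate 2 (0.0589) or BCL9 KD replicate 3 (0.07), while its log2 fold change stayed between −1.12 and −0.89 under all 18 alternatives. The basal label of the line was checked on the basal keratin KRT5, which stood at 379 to 428 FPKM in NS control cells, although the luminal keratin KRT8, whose reads may be shared with its pseudogenes, was also present at 262 to 333 FPKM. Summed over 8 basal marker genes, expression was 1670 to 1920 FPKM in NS control and 1770 to 1800 FPKM in BCL9 KD, and none of the 8 was called. Summed over 8 luminal marker genes, it was 449 to 569 FPKM in NS control and 410 to 424 FPKM in BCL9 KD. Most of that sum came from KRT8 and its partner keratin KRT18. Of those 8 genes, 5 were tested and none was called, 3 had an unadjusted p under 0.05 beside 27.5% of all genes tested, and the log2 fold changes of all 5 were below 0 with a median of −0.26. The untested MUC1 went the other way, from a mean of 0.271 FPKM in NS control to 0.414 FPKM in BCL9 KD, as did ESR1. NS control replicate 1 stood apart in base composition. In genes with a transcript GC content under 48%, its median deviation from the NS control mean was −0.18 on the log2 scale, against 0.06 and 0.12 in the other NS control samples and 0.11 to 0.14 in BCL9 KD. Values without this sample are therefore given beside the factors of low GC content.

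**Figure D1:**
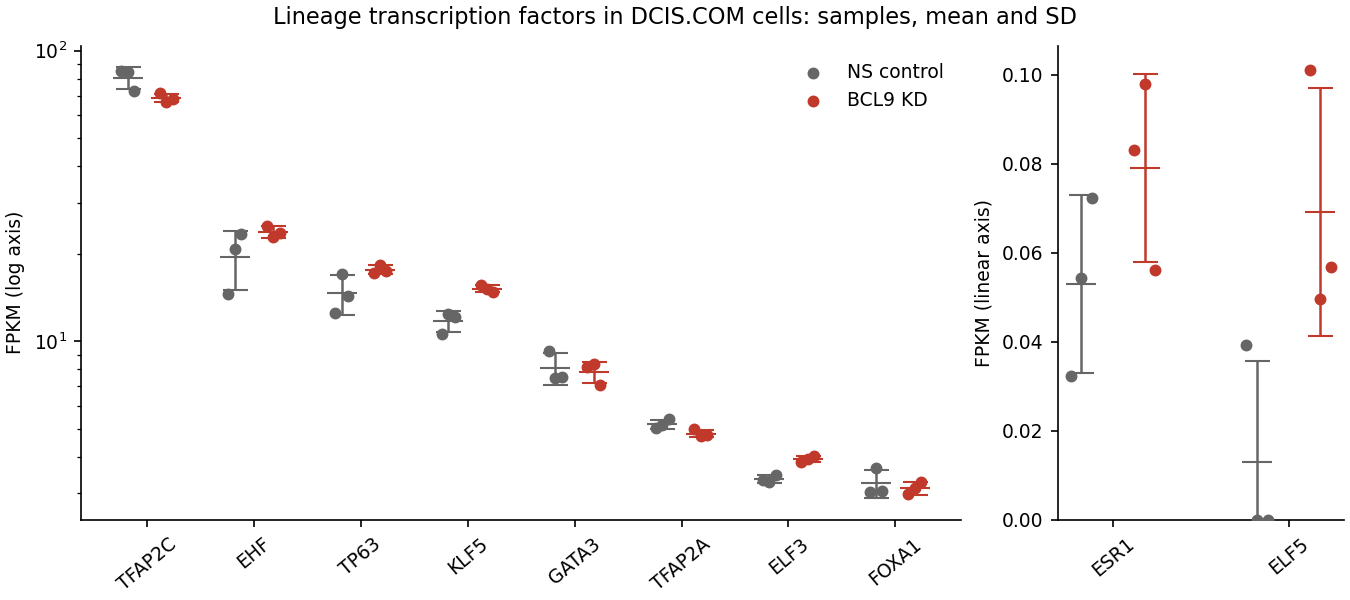
Expression of the 10 lineage factors in FPKM, with the 8 tested factors on a log axis (left) and ESR1 and ELF5 on a linear axis (right). Points are single samples of NS control and BCL9 KD, and bars give the mean and SD of 3 samples, drawn down to 0 where the SD reaches below it. TFAP2C stands highest, between 66.6 and 84.7 FPKM, and ESR1 and ELF5 stay near 0.1 FPKM or lower in every sample.

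The order of the mean levels was the same in both groups, from TFAP2C through EHF, TP63, KLF5, GATA3, TFAP2A, ELF3, FOXA1 and ESR1 to ELF5. In NS control the ranges of EHF and TP63 overlapped, as did those of ELF3 and FOXA1 and those of ESR1 and ELF5. Within the same sample, however, EHF was above TP63 in 3 of 3 NS control samples, while ELF3 was above FOXA1 in 2 of 3 and ESR1 above ELF5 in 2 of 3. In BCL9 KD only the ranges of ESR1 and ELF5 overlapped, and ESR1 was above ELF5 in 1 of 3 samples. Summed over the 10 factors, expression was 142 to 154 FPKM in NS control and 143 to 149 FPKM in BCL9 KD. TFAP2C was the largest part of that sum, at 72.5 to 84.7 FPKM in NS control and 66.6 to 71.2 FPKM in BCL9 KD.

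Promoter sequence from RefSeq (GRCh38.p14) was read for the 250 bases before each annotated start, which gave 22 windows for 9 of the 10 factors, all but TFAP2C. Each window was searched on both strands for 6 short motifs, and since the motifs may overlap each was counted separately. The STAT motif TTCNNNGAA was in 6.57% of all 35116 windows of this length and in 2 of the 22, both of ESR1. The TCF/LEF motif CTTTGAT, through which β-catenin and BCL9 reach DNA, was in 2.26% of all windows and in 0 of the 22. The KLF motif GGGCGGG was in 31.5% of all windows and in 7 of the 22, from 4 factors. The AP-2 motif GCCNNNGGC was in 19.8% of all windows and in 3 of the 22, all of GATA3. The GATA motif AGATAA was in 9.17% of all windows and in 1 of the 22, from EHF. The ETS motif AGGAAG was in 28.7% of all windows and in 4 of the 22, from 4 factors. A match describes these letters only and is not evidence of binding.

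Windows of KLF5, TP63 and ESR1 are shown in GRCh38.p14, each on the plus strand and read 5′ to 3′, with STAT, TCF/LEF and KLF matches in capitals. Those of KLF5 are given because it lay nearest to the threshold and its starts differ in composition. They are the first start at chr13:73054726-73054975 (40.8% GC) and a second at chr13:73058755-73059004 (70.8% GC), where a KLF match begins 49 bases before the start. The only window of TP63, the basal factor, lies at its upstream start, at chr3:189631139-189631388 (44.0% GC). No start inside the gene was searched, and which start these cells used was not tested. A start of ESR1 at chr6:151808857-151809106 (51.2% GC) holds a STAT match 208 bases before the start, which is shown because STAT3 signalling was the subject of the study.
KLF5 first start: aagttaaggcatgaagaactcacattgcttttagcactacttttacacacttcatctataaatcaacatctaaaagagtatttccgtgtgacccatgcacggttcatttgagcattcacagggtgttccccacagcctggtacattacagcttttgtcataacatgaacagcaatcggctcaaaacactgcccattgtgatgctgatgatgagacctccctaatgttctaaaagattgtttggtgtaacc
KLF5 second start: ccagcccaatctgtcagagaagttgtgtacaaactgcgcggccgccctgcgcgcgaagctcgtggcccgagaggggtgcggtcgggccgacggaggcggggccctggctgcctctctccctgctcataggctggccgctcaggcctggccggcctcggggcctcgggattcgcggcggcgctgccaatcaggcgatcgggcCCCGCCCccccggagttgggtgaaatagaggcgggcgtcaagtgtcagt
TP63 upstream start: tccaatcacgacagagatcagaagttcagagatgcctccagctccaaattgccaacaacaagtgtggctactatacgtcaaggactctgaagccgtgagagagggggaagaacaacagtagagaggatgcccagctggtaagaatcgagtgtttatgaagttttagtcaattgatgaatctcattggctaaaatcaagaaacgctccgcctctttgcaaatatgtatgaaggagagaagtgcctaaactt
ESR1 start: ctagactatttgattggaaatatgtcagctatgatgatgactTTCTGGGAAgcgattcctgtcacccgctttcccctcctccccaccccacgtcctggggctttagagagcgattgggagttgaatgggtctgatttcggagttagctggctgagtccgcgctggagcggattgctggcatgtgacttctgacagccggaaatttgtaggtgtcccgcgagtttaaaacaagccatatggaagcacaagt

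TP63 (ENSG00000073282), the basal factor, spans 189631416 to 189897279 on the plus strand of chromosome 3 in GRCh38. In replicates 1, 2 and 3, in that order as in all lists of values here, it was expressed at 12.5, 17.0 and 14.3 FPKM in NS control and at 17.1, 18.3 and 17.4 FPKM in BCL9 KD. The BCL9 KD values all lay above the NS control values, by the narrow margin of 17.1 against 17.0 FPKM. The log2 fold change was 0.27 (95% confidence interval 0.00 to 0.54) with a limma adjusted p of 0.18, and the 2-sided exact permutation test gave p = 0.1, the smallest that 3 samples against 3 allow. Its transcripts have a GC content of 47.5%, and without NS control replicate 1 the log2 fold change was 0.17 (limma adjusted p = 0.269). The FPKM covers the whole gene, so the long TAp63 and the shorter ΔNp63 forms could not be told apart.

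TFAP2C (ENSG00000087510), an AP-2 factor, spans 56629302 to 56639283 on the plus strand of chromosome 20. Its expression was higher than that of 97.2% of the genes tested, at 84.7, 84.6 and 72.5 FPKM in NS control and 71.2, 66.6 and 68.0 FPKM in BCL9 KD. Every BCL9 KD sample was lower than every NS control sample, with replicate 3 the lowest of the NS control samples. The log2 fold change was −0.23 (95% confidence interval −0.42 to −0.03), with a limma adjusted p of 0.133 and an exact permutation p of 0.1. Without NS control replicate 3 the change was −0.30 and passed the threshold (limma adjusted p = 0.0451), the 1 of 18 alternatives in which it did. It was −0.19 without NS control replicate 1 (adjusted p = 0.197) or replicate 2 (0.332) and −0.15 after a correction for GC content (0.174).

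TFAP2A (ENSG00000137203), its relative on the minus strand of chromosome 6 from 10393186 to 10419659, had far lower expression, at 5.01, 5.13 and 5.38 FPKM in NS control and 4.97, 4.72 and 4.75 FPKM in BCL9 KD. The groups did not overlap, yet the log2 fold change was small, at −0.09 (95% confidence interval −0.27 to 0.08, limma adjusted p = 0.432, exact permutation p = 0.1). Per length, TFAP2C exceeded TFAP2A by a ratio of 13.5 to 16.9 in the NS control samples and 14.1 to 14.3 in the BCL9 KD samples. The use of strand in the counting is not given in the sources used here, so reads of TFAP2A could not be told apart from those of its 2 antisense genes, which each held at most 24 reads in a sample against 613 to 1049 on TFAP2A.

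Of the luminal factors, GATA3 (ENSG00000107485), a zinc finger factor required for luminal differentiation, spans 8053604 to 8075198 on the plus strand of chromosome 10. It was expressed at 9.28, 7.45 and 7.55 FPKM in NS control and 8.12, 8.32 and 7.08 FPKM in BCL9 KD. The ranges overlapped, with NS control replicate 1 the highest and BCL9 KD replicate 3 the lowest of the samples. The log2 fold change was −0.04, with a 95% confidence interval of −0.3 to 0.22 (limma adjusted p = 0.837, exact permutation p = 0.8). Its sign changed when NS control replicate 1 (0.06) or BCL9 KD replicate 3 (0.03) was left out.

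FOXA1 (ENSG00000129514), the pioneer factor that opens chromatin for the estrogen receptor, lies on the minus strand of chromosome 14 from 37589984 to 37596059. It was expressed at 3.02, 3.65 and 3.05 FPKM in NS control and 2.97, 3.12 and 3.29 FPKM in BCL9 KD, again with overlapping ranges. The log2 fold change was −0.04, with a 95% confidence interval of −0.28 to 0.2 (limma adjusted p = 0.812, exact permutation p = 0.8), and it was 0.04 without NS control replicate 2. Both luminal factors thus had intervals that reached no further than −0.3 and 0.22 on the log2 scale. The ratio of TP63 to FOXA1 was 4.15 to 4.68 in the NS control samples and 5.29 to 5.85 in the BCL9 KD samples, without overlap. It was the only ratio taken between genes that did not overlap, and 34.2% of single genes tested did not overlap either. The ratio of GATA3 to FOXA1 overlapped, at 2.04 to 3.08 in NS control and 2.16 to 2.74 in BCL9 KD. The ratio of TP63 to GATA3 also overlapped, at 1.35 to 2.28 in NS control and 2.10 to 2.45 in BCL9 KD.

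ESR1 (ENSG00000091831), the estrogen receptor, spans 151656691 to 152129619 on the plus strand of chromosome 6 and had few reads. There were 10, 15 and 15 reads in NS control (0.0323, 0.0544 and 0.0723 FPKM) and 20, 36 and 12 reads in BCL9 KD (0.083, 0.098 and 0.0562 FPKM). BCL9 KD replicate 3 lay within the NS control range. Pooled over each group, the level was 0.0505 FPKM in NS control (exact 95% Poisson interval 0.036 to 0.0687) and 0.0828 FPKM in BCL9 KD (0.0643 to 0.105), and these intervals overlapped. They cover counting error only, because reads were pooled over the samples and the spread between flasks was left out. The libraries carried no molecular identifiers, so duplicate reads could not be told apart. SYNE1, on the opposite strand, overlaps ESR1 and held 464 to 656 reads in a sample, and without strand its part in the ESR1 reads was not tested.

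ELF5 (ENSG00000135374), the ETS factor of alveolar cells, lies on the minus strand of chromosome 11 from 34478793 to 34513805 and was near the limit of detection. It had 4, 0 and 0 reads in the NS control samples and 8, 6 and 4 reads in the BCL9 KD samples. The 0 counts allow up to 0.033 FPKM in NS control replicate 2 and 0.0439 FPKM in replicate 3, at a limit of 3 reads. The BCL9 KD samples were listed at 0.101, 0.0495 and 0.0568 FPKM, all above the 0.0392 FPKM of NS control replicate 1. Pooled levels were 0.0153 FPKM in NS control (exact 95% Poisson interval 0.00417 to 0.0392) and 0.0664 FPKM in BCL9 KD (0.0394 to 0.105). These intervals, which cover counting error only, did not overlap, by a narrow margin. With the filter on low values dropped, limma gave ELF5 an adjusted p of 0.3 and ESR1 an adjusted p of 0.618.

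The epithelial ETS factors ELF3 and EHF were both expressed. ELF3 (ENSG00000163435), on the plus strand of chromosome 1 from 202007945 to 202017188, stood at 3.34, 3.27 and 3.47 FPKM in NS control and 3.84, 3.93 and 4.02 FPKM in BCL9 KD. All BCL9 KD values lay above all NS control values, and both groups were tight. The log2 fold change was 0.20 (95% confidence interval 0.02 to 0.38), with a limma adjusted p of 0.152 and an exact permutation p of 0.1. An antisense gene, RP11-465N4.4, overlaps ELF3 and held 62 to 91 reads in a sample against 380 to 762 on ELF3.

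EHF (ENSG00000135373), which neighbours ELF5 on chromosome 11 at 34621093 to 34661057 on the plus strand, was expressed at 14.5, 20.7 and 23.3 FPKM in NS control and 24.9, 22.8 and 23.6 FPKM in BCL9 KD. NS control replicate 1 was the lowest sample, and BCL9 KD replicate 2 lay within the NS control range. The log2 fold change of 0.31 had a wide 95% confidence interval of −0.08 to 0.7 (limma adjusted p = 0.271, exact permutation p = 0.2). Without NS control replicate 1 it was 0.11 (limma adjusted p = 0.381). The ratio of EHF to ELF3 was 4.34 in that sample and 5.81 to 6.70 in the other 5.

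KLF5 (ENSG00000102554), whose promoter windows are given above, spans 73054976 to 73077542 on the plus strand of chromosome 13. It was expressed at 10.6, 12.4 and 12.1 FPKM in NS control and 15.6, 15.1 and 14.8 FPKM in BCL9 KD, from 720 to 1589 reads in a sample. All BCL9 KD values lay above all NS control values, with a gap of more than the range within either group. The ratio of the means was 1.29 and the log2 fold change 0.36 (95% confidence interval 0.17 to 0.55, limma adjusted p = 0.0501, exact permutation p = 0.1). The change was called in 7 of 18 alternatives, in which the log2 fold change ranged from 0.29 to 0.40 and the adjusted p from 0.0191 to 0.202. It passed without NS control replicate 1 (0.29, adjusted p = 0.05 after rounding) or replicate 3 (0.39, adjusted p = 0.0461), and did not pass without NS control replicate 2 (adjusted p = 0.146) or BCL9 KD replicate 1 (0.0941), 2 (0.202) or 3 (0.194).

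**Figure D2:**
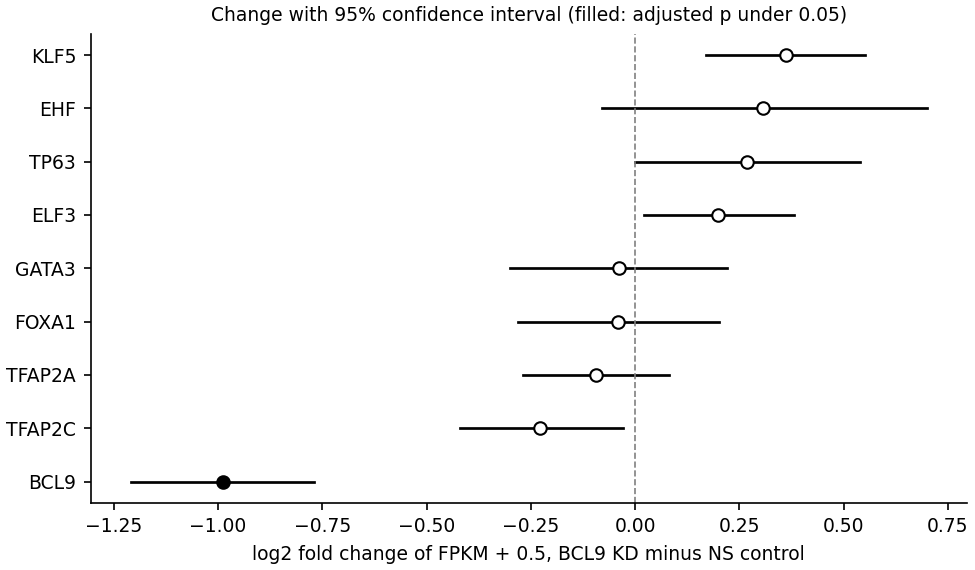
Log2 fold change of FPKM + 0.5 in BCL9 KD against NS control, for the 8 tested lineage factors and BCL9, with 95% confidence intervals from limma (3 samples a group). Filled points passed an adjusted p of 0.05, which only BCL9 did, at −0.99, and the lineage factors lie between −0.23 for TFAP2C and 0.36 for KLF5.

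Across the 8 tested factors, 4 had a log2 fold change above 0 (KLF5, EHF, TP63 and ELF3) and 4 below 0 (TFAP2C, TFAP2A, GATA3 and FOXA1), and the median was 0.08 beside 0.04 for all genes tested. In 5 of the 8 (TP63, ELF3, KLF5, TFAP2A and TFAP2C) the groups did not overlap, beside 34.2% of all genes tested.

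Base composition is given beside these signs, and its part in them was not tested. KLF5 (43.5% GC), EHF (45.0%) and TP63 (47.5%) have the transcripts of lowest GC content among the tested factors, and all 3 had a log2 fold change above 0. The 6540 tested genes under 48% GC had a median log2 fold change of 0.13, and the 7037 genes at 48% or above had a median of −0.04. NS control replicate 1 deviated from the NS control mean by −0.39 in EHF, −0.20 in TP63 and −0.14 in KLF5. The BCL9 KD samples deviated by 0.33 to 0.40 in KLF5, 0.25 to 0.37 in EHF and 0.23 to 0.32 in TP63. ELF3 (56.9% GC) also had a log2 fold change above 0, with deviations of 0.17 to 0.23 in BCL9 KD at a high GC content.

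After a loess correction of each sample for GC content, the log2 fold change was 0.33 in KLF5, which then passed (limma adjusted p = 0.0191). It was 0.31 in EHF (limma adjusted p = 0.222), 0.31 in TP63 (0.111) and 0.29 in ELF3 (0.0907). TFAP2C moved to −0.15 and TFAP2A to −0.01, and the signs of GATA3 (0.05) and FOXA1 (0.04) changed.

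**Figure D3:**
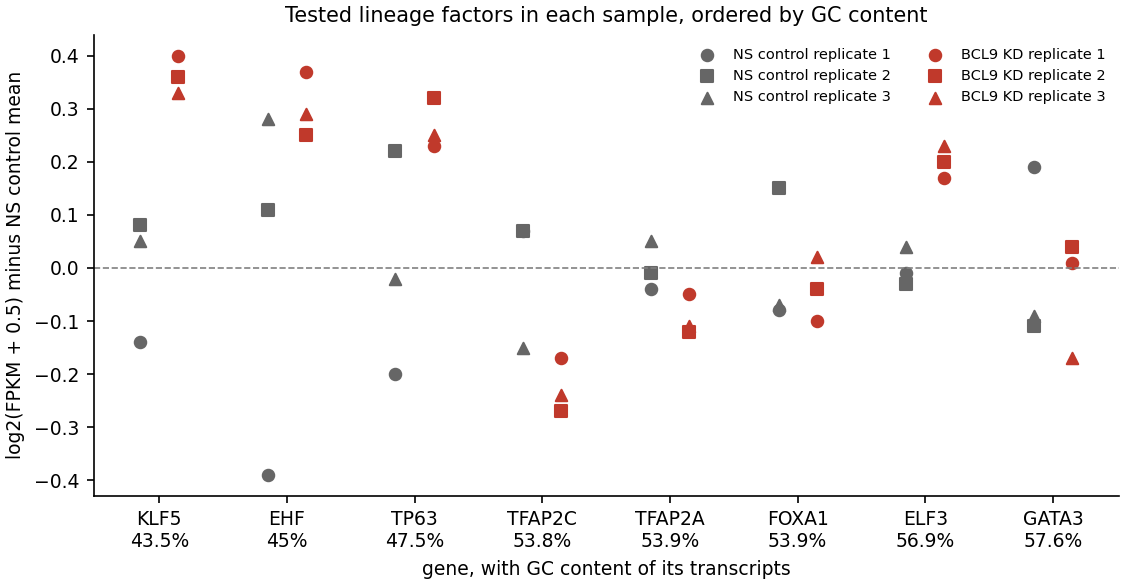
Log2(FPKM + 0.5) of each tested lineage factor in each sample, minus the NS control mean of that factor, with factors ordered by the GC content of their transcripts from KLF5 (43.5%) to GATA3 (57.6%). Colours give the group and symbols the replicate. NS control replicate 1 is the lowest sample in KLF5, EHF and TP63 and the highest in GATA3, and the BCL9 KD samples of KLF5 sit at 0.33 to 0.40.

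**Figure D4:**
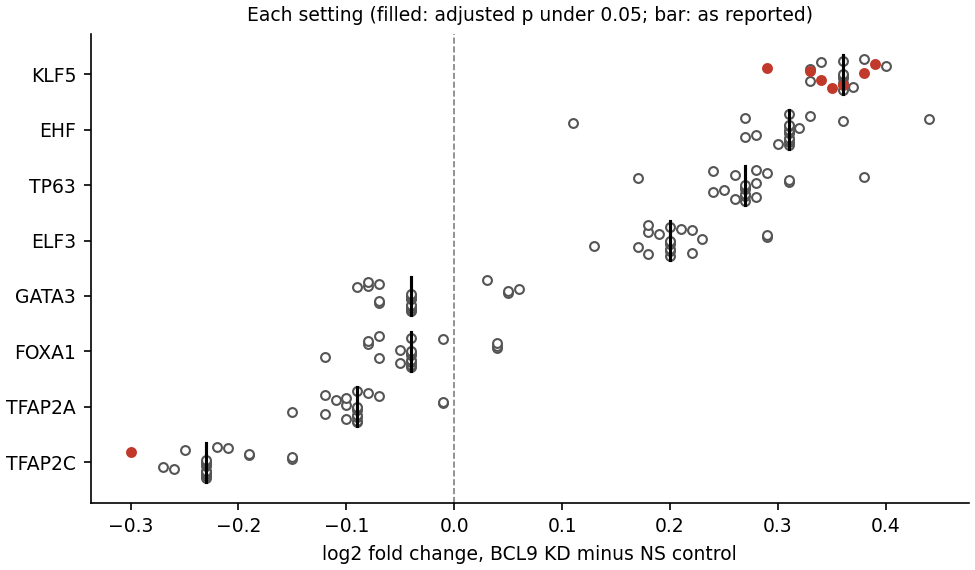
Log2 fold change of each tested lineage factor as reported (bar) and under 18 alternatives (points), with filled points where the adjusted p was under 0.05. KLF5 stays between 0.29 and 0.40 and TFAP2C between −0.30 and −0.15, whereas the points of GATA3 and FOXA1 fall on both sides of 0.

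The genes around these factors were taken from 6 lists of known targets, relatives and partners, 117 genes in all, of which 87 were tested. The lists were chosen with earlier results of these data known, so the shares called, together or by list, could not show an excess. Of the 87, 7 rose, 5 fell and 75 did not pass, so that 13.8% were called beside 5.87% of all genes tested, with a median log2 fold change of −0.06. The calls of the 12 genes depended on single libraries. Without NS control replicate 2, BCL9 KD replicate 2 or BCL9 KD replicate 3, none of the 12 passed in limma, with lowest adjusted p-values of 0.0625, 0.0589 and 0.07, and the calls over all genes tested fell to 12, 13 and 5. Without NS control replicate 1, NS control replicate 3 or BCL9 KD replicate 1, 8, 11 and 7 of the 12 passed. Those lost were KLF2, NCOA1, S100A2 and TLE3 without NS control replicate 1, BCL11A without NS control replicate 3, and BCL11A, JAG2, KLF2, MYB and PERP without BCL9 KD replicate 1. With all samples kept, 0 of the 12 passed with the replicate block (lowest adjusted p = 0.0656), 3 with the GC correction and the block, 4 with no filter on low values and 5 without the limma trend, and all 12 passed with voom on the recovered reads.

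Among 17 p63 target and basal epithelial genes, all tested, 3 rose and 1 fell (23.5% called), with a median log2 fold change of −0.06. S100A2, a calcium-binding protein of basal epithelium, had the highest change of the list. It was at 707, 651 and 783 FPKM in NS control and at 1060, 1520 and 1500 FPKM in BCL9 KD (log2 fold change 0.91, limma adjusted p = 0.0299). COL17A1, the hemidesmosomal collagen, rose from 36.2 to 39.5 FPKM in NS control to 49.6 to 51.9 FPKM in BCL9 KD (log2 fold change 0.44, limma adjusted p = 0.0219). PERP, a desmosomal membrane protein, rose from 60.5 to 64.8 FPKM to 76.4 to 79.4 FPKM (0.31, limma adjusted p = 0.0398), a call that was lost after the GC correction (adjusted p = 0.177). JAG2, a Notch ligand, fell from 32.8 to 36.9 FPKM to 26.2 to 27.5 FPKM (−0.39, limma adjusted p = 0.0343). KRT5 itself was at 388 to 436 FPKM in BCL9 KD, a log2 fold change of 0.05 that did not pass (limma adjusted p = 0.7).

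Of 16 luminal genes regulated by ESR1, FOXA1 and GATA3, 10 were tested and 2 rose (20% called, median −0.04). AGR2, a protein disulfide isomerase of secretory epithelium, rose from 0.944, 0.782 and 0.6 FPKM in NS control to 2.82, 2.86 and 2.8 FPKM in BCL9 KD (log2 fold change 1.39, limma adjusted p = 0.00773). MYB, a transcription factor and estrogen target, rose from 1.39, 1.15 and 1.18 FPKM to 2.28, 2.11 and 1.96 FPKM (0.59, limma adjusted p = 0.0374). PGR, TFF1 and TFF3, named after their values were seen as classic estrogen-responsive genes, were listed at 0 in every sample. The luminal keratin KRT8 was at 242 to 246 FPKM in BCL9 KD, a log2 fold change of −0.26 that did not pass (limma adjusted p = 0.144).

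Of 15 luminal progenitor and alveolar genes, 8 were tested and 1 rose (12.5% called, median 0.04). This was SLPI, a secreted inhibitor of proteases, at 54.8, 41.4 and 45.9 FPKM in NS control and 86.6, 96.6 and 94.8 FPKM in BCL9 KD (log2 fold change 0.97, limma adjusted p = 0.0117). The milk protein genes CSN2, CSN3 and LALBA, named after their values were seen, were listed at 0 in every sample, beside the few reads on ELF5.

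Of 24 other mammary and epithelial transcription factors, 20 were tested, 1 rose and 1 fell (10% called, median −0.04). LMO4, a LIM-domain cofactor of mammary epithelium, rose from 11.1, 10.9 and 11.5 FPKM to 14.5, 14.9 and 14.8 FPKM (log2 fold change 0.39, limma adjusted p = 0.0287). BCL11A, a zinc finger factor of mammary progenitors, fell from 4.18, 4.59 and 4.68 FPKM to 3.43, 3.36 and 3.3 FPKM (−0.37, limma adjusted p = 0.0488).

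Of 30 relatives from the families of the lineage factors, 18 were tested and 1 fell (5.56% called, median 0.02). KLF2, a relative of KLF5, fell from 2.77, 2.28 and 2.18 FPKM to 0.785, 1.32 and 1.39 FPKM (log2 fold change −0.82, limma adjusted p = 0.0473), opposite in sign to KLF5. Of the other AP-2 genes, TFAP2B and TFAP2D were listed at 0 in every sample, as were GATA5 and FOXA2.

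Of 17 cofactors and regulators, 16 were tested and 2 fell (12.5% called, median −0.12). TLE3, a corepressor that binds FOXA factors, fell from 8.18, 7.91 and 7.24 FPKM to 6.0, 5.23 and 4.89 FPKM (log2 fold change −0.50, limma adjusted p = 0.0387). NCOA1, a coactivator of the estrogen receptor, fell from 4.13, 4.28 and 4.07 FPKM to 3.31, 2.81 and 2.94 FPKM (−0.41, limma adjusted p = 0.0474).

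**Figure D5:**
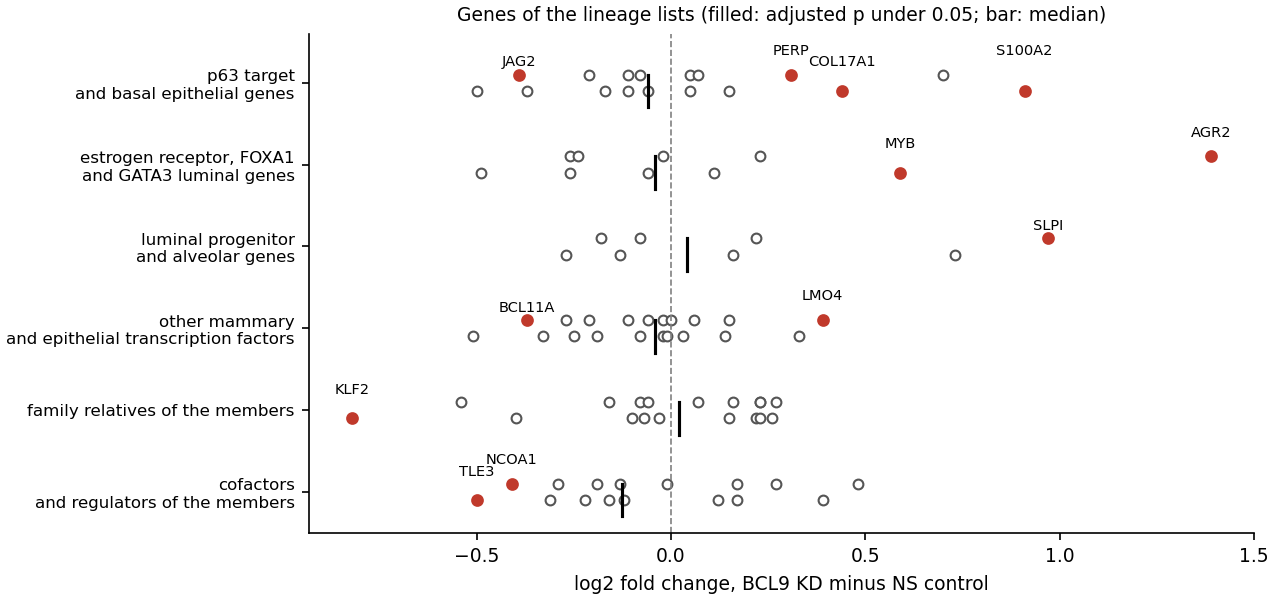
Log2 fold change of every tested gene in the 6 lists around the lineage factors, with a bar at the median of each list and filled, labelled points for genes with an adjusted p under 0.05. The medians lie between −0.12 for the cofactors and 0.04 for the luminal progenitor genes, and AGR2 (1.39), SLPI (0.97) and S100A2 (0.91) lie farthest to the right.

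Markers of other cell types were low. Summed over 7 fibroblast genes, expression was 0.702 to 0.732 FPKM in NS control and 0.767 to 0.905 FPKM in BCL9 KD, and COL1A1, the only one tested, did not pass (limma adjusted p = 0.693). Over 6 leukocyte genes it was 0.101 to 0.172 FPKM and 0.159 to 0.214 FPKM, with none tested. Over 5 endothelial genes it was 1.90 to 2.45 FPKM and 3.23 to 4.08 FPKM, most of it from PECAM1, an adhesion molecule also made by other cells. PECAM1 was at 2.28, 2.29 and 1.72 FPKM in NS control and 3.91, 3.11 and 3.32 FPKM in BCL9 KD (log2 fold change 0.61, limma adjusted p = 0.0477), and its part in the results was not tested. With 1 sample left out, PECAM1 passed only without NS control replicate 3.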

How the data were processed

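The deposited table gave FPKM and gene lengths in bases for 58676 genes, made by the authors from paired-end reads through STAR alignment and HTSeq 0.6.1 counting. Per the submitters' processing notes the build was hg38. The methods name a count-based test and 2 biological replicates per condition, whereas the labels give 3 and the table holds no counts.

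Read numbers recovered from FPKM and gene length were whole for 100% of values (tolerance 0.1), which gave depths of 15222452 to 26949026 reads. Log2 values correlated at 0.964 to 0.987 within groups. limma 3.58.1 in R 4.3.3 with an empirical Bayes trend was fitted to log2(FPKM + 0.5), BCL9 KD minus NS control, in the 13745 genes whose mean over all samples reached 0.5 FPKM, with Benjamini-Hochberg adjustment and a threshold of 0.05. This pseudocount of 0.5 FPKM understates changes of low genes. Single factors were also compared by a 2-sided exact permutation test. ESR1 and ELF5 were given exact Poisson intervals at 95%. GC content of transcripts came from the GRCh37 annotation and was known for 98.8% of tested genes. The correction used a loess span of 0.3. Other tools were Python 3.11.15 with scipy 1.17.1, pandas 2.3.3, numpy 2.4.6 and, for plots, matplotlib 3.10.9, and the fit was tested on simulated data.

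The lineage factors and gene lists were chosen with earlier results of these data known. Named genes were all 10 factors, BCL9, and each list gene past the threshold, or the gene with the largest change where none passed: ERBB3 in the luminal marker list (log2 fold change −0.44, adjusted p = 0.0555) and COL1A1 in the fibroblast list. A result that this rule would add is not reported here. KRT5 and KRT8 were named as markers. The replicate numbers in the labels did not pair the samples and were used only in an alternative. Alternatives were other pseudocounts, filters, scalings and limma settings, voom on the recovered reads, the GC correction, the replicate block, and leaving out each sample. No sample was left out of the reported fit.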

Additional observations from a re-analysis of the deposited data

How the results depend on the processing

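Of 144 values of the 8 tested factors under 18 alternatives, 129 kept their sign and their side of the threshold, 8 crossed it and 7 changed sign. KLF5 passed with a pseudocount of 1 FPKM (0.35), a mean FPKM of at least 1 (0.36), quantile normalization (0.34), voom (0.38) and the GC correction (0.33), the 5 settings of the full set of samples in which 1 factor was called. With 1 sample left out, KLF5 ranged from 0.29 to 0.40, TFAP2C from −0.30 to −0.19, GATA3 from −0.09 to 0.06 and FOXA1 from −0.08 to 0.04, and 0 to 2 factors were called. GATA3 was at 0.05 and FOXA1 at 0.04 under the GC correction, with or without the replicate block. Of all genes tested, 142 of 30731 were called with no filter, 332 without the trend, 1400 by voom, 1752 after the GC correction, 320 after the GC correction with the block and 5 to 1729 with 1 sample left out. The share of calls that were higher in BCL9 KD was 50.4% as reported, 43.4% after quantile normalization, 57.0% after the GC correction and 65.9% after the GC correction with the block. With the replicate block, limma called 0 genes (3235 at an unadjusted p under 0.05) and the adjusted p was 0.128 for KLF5, 0.193 for TP63, 0.21 for TFAP2C and 0.0656 for BCL9. The correlation of deviations was −0.147, −0.0884 and −0.00287 for the 3 same-numbered pairs, so the numbers did not pair the samples.

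In the p63 target list 1 gene was called with no filter, 2 without the trend, 0 with the block, 1 with GC correction and block. In the ESR1, FOXA1 and GATA3 list these were 1, 2, 0 and 1. In the luminal progenitor list 0 were called with the block and 2 after the GC correction. Of the other transcription factors, 4 were called at a mean FPKM of at least 1 and after the GC correction, 1 with no filter or robust fitting, and 0 without the trend or with either block. Of the relatives, 3 were called at a mean FPKM of at least 1, by voom and after the GC correction, and 0 with a pseudocount of 0.1 FPKM, no filter, no trend or the block. Of the cofactors, 1 was called with robust fitting and 0 with no filter, no trend or either block. With 1 sample left out, the counts ranged from 0 to 5 in the p63 target list, 0 to 3 in the relatives, 0 to 2 in the ESR1, FOXA1 and GATA3 list, the other transcription factors and the cofactors, and 0 to 1 in the luminal progenitor list, the luminal markers and the endothelial markers. Voom and the GC correction each called 1 basal marker. Of the luminal markers, 1 was called at a mean FPKM of at least 1, by voom and after the GC correction, and 2 after quantile normalization. PECAM1 was not called (0) with quantile normalization, median-of-ratios scaling, no filter, no trend or either block. ESR1 and ELF5 rest on at most 36 and 8 reads in a sample, so their levels have a large counting error. In groups of 3 samples a single library decides many calls.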
